A study of Homo sapiens with 8 samples.

Results

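The genes described here are 10 markers and regulators of the epithelial-mesenchymal state, CDH1, EPCAM, ESRP1, ESRP2, GRHL2, OVOL1, VIM, ZEB1, SNAI1 and SNAI2, out of 48162 Ensembl identifiers with counts. They were taken by symbol, and all 10 were found. RNA was sequenced from HT-29, a human colorectal adenocarcinoma cell line, in 4 libraries of unedited wild-type cells (WT) and 4 libraries of cells edited at MIEN1 (MIEN1_KO), which carried no other stated treatment at harvest. For the edit, plasmids carrying Cas9 and guides that flank MIEN1 were electroporated, puromycin removed the cells without them, and lines were grown from single cells. Cloning is not mentioned for WT, and how many edited clones were sequenced is not given in the sources used here, so the edit, the cloning and any batch cannot be told apart. Each library pooled RNA of 4 dishes.

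Epithelial cells hold to their neighbours through E-cadherin, and in the epithelial-mesenchymal transition they exchange these contacts for a vimentin cytoskeleton and a motile shape. The transition is driven by transcription factors of the SNAI, ZEB and TWIST families, which bind E-boxes in the promoters of epithelial genes and repress them. GRHL2, the OVOL factors and the miR-200 microRNAs act against the ZEB factors, and ESRP1 and ESRP2 keep the epithelial choice of exons in many transcripts. Colorectal epithelium and most differentiated colorectal cancer lines are on the epithelial side of this balance.

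The miR-200 family is shown because it is the best known link between the epithelial side and ZEB1. The mature sequences, from RefSeq (GRCh38.p14), fall into groups by seed, which is in capitals (bases 2 to 8):
hsa-miR-200b-3p: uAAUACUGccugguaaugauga
hsa-miR-200c-3p: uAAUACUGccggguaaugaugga
hsa-miR-200a-3p: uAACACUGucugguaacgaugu
hsa-miR-141-3p: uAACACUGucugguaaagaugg
The first pair shares the seed AAUACUG and the second pair AACACUG. In the annotated ZEB1 3′ untranslated region of 2549 bases, the letters CAGTATT, complementary to the first seed, occurred 6 times, and CAGTGTT, complementary to the second, occurred 3 times. Only the sense strand of the transcript was searched, and the motifs did not overlap each other. Of 4391 annotated 3′ untranslated regions at least that long, 27% held CAGTATT and 30.4% held CAGTGTT in their first 2549 bases. One match to each seed (capitals; GRCh38, plus strand) is printed:
ZEB1 chr10:31528563-31528584: gtcttcaaacctggCAGTATTa
ZEB1 chr10:31528783-31528804: gagatttgatttaaCAGTGTTa
A match describes these letters only. The microRNAs themselves were not measured in these poly-A libraries. Their host transcript MIR200CHG, which carries miR-200c and miR-141, averaged 1.52 CPM in WT and 1.5 CPM after the edit (edgeR adjusted p = 0.968).

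The libraries held 21940903 to 25148790 counts. MIEN1 had 522, 594, 471 and 493 counts in the WT libraries and 15, 19, 23 and 16 in the MIEN1_KO libraries. Its level fell by 4.75 on the log2 scale (SE 0.13, edgeR adjusted p = 1.0e-11), in the direction of the labels. Of 14228 genes with enough counts, edgeR called 5933, or 41.7%, at an adjusted p below 0.05, with 21.0% of genes higher and 20.7% lower in MIEN1_KO. Higher genes were 50.2% of the calls, against 39.7% with upper-quartile scaling, 53.4% with a GC offset and 68% with the uncentred GC curves described below, which moved the median of all genes from -0.02 to 0.08. MIEN1_KO replicate 4 stood apart from the other edited libraries on the second principal component (9.13% of the variance). Levels are given as CPM, counts scaled to a common TMM-adjusted library size, with mean ± SD over 4 libraries. Each log2 difference is that of MIEN1_KO from WT. In bulk RNA, fewer cells with a transcript and less transcript per cell cannot be told apart. The labels describe the replicates as independent, and p-values measure the spread between these libraries only.

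Markers of colon epithelium were abundant, apart from CDH17 at 0.616 CPM in WT and 0.0324 CPM in MIEN1_KO. The 8 epithelial markers summed to 10733.8 to 11292.9 CPM in WT and to 13529.7 to 17276.4 CPM in MIEN1_KO. Most of each sum was KRT8, with means of 7236.8 CPM in WT and 10236.7 CPM in MIEN1_KO. Of the 8, 4 were higher, all of them keratins, and 2 were lower (CDH17 and LGALS4). The 8 fibroblast markers summed to 2.18 to 3.45 CPM in WT libraries and to between 3.56 and 5.05 CPM in edited ones, mostly COL1A1, with COL3A1 at 0. The 5 endothelial markers found summed to at most 0.463 CPM in a WT library and 0.51 CPM in an edited one, with KDR at 0. The 7 leukocyte markers summed to 893 to 933 CPM in WT and to 722 to 782 CPM in edited cells, nearly all of it LYZ, with CD68 and MS4A1 at 0. Any part of other cells in the mesenchymal values below was not tested.

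Divided by annotated exon length, the members spanned from high epithelial to barely detected mesenchymal transcripts. In WT the mean levels per kb were 184 CPM for EPCAM, 61.1 for CDH1, 43.8 for ESRP1, 21.9 for ESRP2, 14.8 for GRHL2 and 4.5 for OVOL1. Below them were SNAI1 at 0.556 CPM per kb, ZEB1 at 0.0419, VIM at 0.0218 and SNAI2 at 0. The order was the same in MIEN1_KO, where EPCAM was at 177 CPM per kb, CDH1 at 68.6, ESRP1 at 38.5, ESRP2 at 25.2, GRHL2 at 15.3, OVOL1 at 5.9, SNAI1 at 0.848, ZEB1 at 0.0709 and VIM at 0.0132. Neighbours in this order did not overlap between libraries of a group, except ZEB1 and VIM in WT, and VIM and SNAI2 in both groups, where each had a library at 0. CDH1 exceeded VIM per kb by a ratio of 1515 to 8817 in the 6 libraries with any VIM count. The lowest ratio rests on 5 VIM counts (WT replicate 3) and the highest on 1 (MIEN1_KO replicate 1), so the range is imprecise. Libraries with 0 VIM counts give no ratio.

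**Figure D1:**
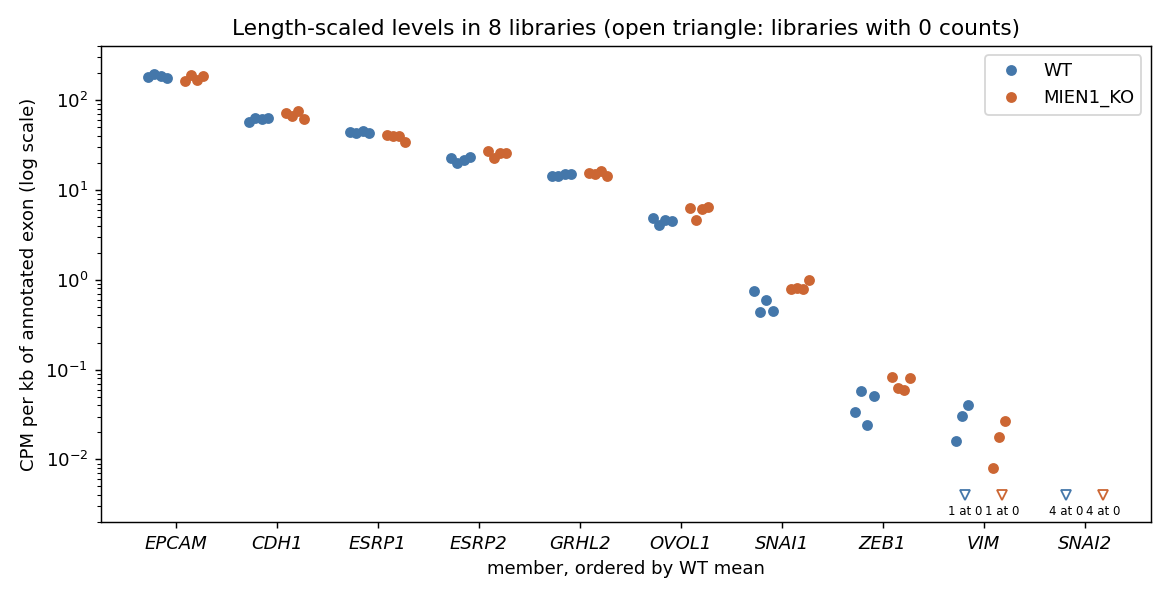
CPM per kb of annotated exon on a log axis for each member in 4 WT and 4 MIEN1_KO libraries, 1 point per library, with open triangles for libraries at 0. EPCAM is highest at 184 (WT mean) and SNAI2 has no count in any library.

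CDH1 (ENSG00000039068, chr16:68737225-68835548, plus strand, GRCh38) encodes E-cadherin, the adherens junction protein whose loss marks the transition. Its levels were 353, 389, 382 and 385 CPM in the WT libraries and 440, 413, 462 and 382 CPM in MIEN1_KO. The first 3 edited libraries were above every WT library, and replicate 4 lay within the WT range, so the groups overlapped. The means were 377 ± 16.1 and 424 ± 34.6 CPM (SD, n = 4), a log2 difference of 0.17 (SE 0.07, 95% interval 0.016 to 0.321). It did not pass the test (edgeR adjusted p = 0.0708), yet it passed without MIEN1_KO replicate 4, at 0.24 on the log2 scale (edgeR adjusted p = 0.00103), and with the DESeq2 Wald test (adjusted p = 0.0421). The antisense gene AC099314.1 shares 347 exonic bases with CDH1 and had 10 counts in WT and 15 in MIEN1_KO.

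EPCAM (ENSG00000119888, chr2:47345158-47387601, plus strand) is an adhesion glycoprotein of simple epithelia. It was at 454, 490, 470 and 442 CPM in WT and at 409, 481, 423 and 469 CPM in MIEN1_KO, with the groups intermingled. The means were 464 ± 20.8 and 446 ± 34.9 CPM (SD, n = 4), and the log2 difference was -0.06 (SE 0.07, 95% interval -0.210 to 0.092, edgeR adjusted p = 0.53).

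ESRP1 and ESRP2 encode epithelial splicing regulators that bind RNA and keep epithelial exons. ESRP1 (ENSG00000104413, chr8:94641074-94707466, plus strand) was at 213, 212, 220 and 210 CPM in WT and at 196, 194, 193 and 167 CPM in MIEN1_KO. All 4 edited libraries lay below all WT libraries, and replicate 4 was lowest. The means were 214 ± 4.7 and 188 ± 13.5 CPM (SD, n = 4), and ESRP1 fell by 0.19 on the log2 scale (SE 0.07, edgeR adjusted p = 0.0349). Without MIEN1_KO replicate 4 the log2 difference was -0.12 (edgeR adjusted p = 0.0459). The call was lost when any one of the 4 WT libraries, edited replicate 1 or edited replicate 3 was left out, with log2 differences of -0.19 to -0.16.

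ESRP2 (ENSG00000103067, chr16:68229111-68238102, minus strand) lies 499 kb from the start of CDH1. It was at 126, 112, 121 and 129 CPM in WT and at 150, 125, 142 and 144 CPM in MIEN1_KO. Edited replicate 2 lay within the WT range and the other 3 were above it. The means were 122 ± 7.32 and 140 ± 10.8 CPM (SD, n = 4), and ESRP2 rose by 0.20 on the log2 scale (SE 0.07, edgeR adjusted p = 0.0406). It shares 149 exonic bases with NFATC3 on the opposite strand, and whether reads were assigned by strand is not given in the sources used here. NFATC3 had 2298 counts in WT and 1912 in MIEN1_KO, against 11676 and 12750 for ESRP2. The call was lost without WT replicate 1, 2 or 3 or without edited replicate 1 or 3, with log2 differences of 0.17 to 0.23.

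The ESRP1 to ESRP2 ratio per kb was 1.93, 2.16, 2.09 and 1.86 in the WT libraries and at 1.5, 1.78, 1.55 and 1.33 in MIEN1_KO. The groups did not overlap. As log2 ratios these were 1.00 ± 0.10 and 0.61 ± 0.17 (SD, n = 4), a difference of -0.39, given without a test. With the GC offset described below, the log2 differences were -0.02 for ESRP1 and -0.04 for ESRP2, so the genes no longer went in opposite directions. Counts per gene do not show which exons were used.

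GRHL2 (ENSG00000083307, chr8:101492432-101669726, plus strand) encodes a grainyhead transcription factor that holds epithelial enhancers open, CDH1 and ESRP1 among its known targets. It was at 87, 86.9, 92.1 and 92 CPM in WT and at 93.3, 92, 98.3 and 87 CPM in MIEN1_KO, with the groups overlapping. The log2 difference was 0.05 (SE 0.06, 95% interval -0.086 to 0.186, edgeR adjusted p = 0.558). It had the narrowest interval of the 8 tested members.

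OVOL1 (ENSG00000172818, chr11:65787022-65797219, plus strand) encodes a zinc finger factor that represses ZEB1. It was at 18.8, 15.5, 17.8 and 17.2 CPM in WT and at 24.1, 18, 23.8 and 25 CPM in MIEN1_KO. Edited replicate 2 lay within the WT range and the other 3 above it. The means were 17.3 ± 1.4 and 22.7 ± 3.17 CPM (SD, n = 4), and OVOL1 rose by 0.39 on the log2 scale (SE 0.10, edgeR adjusted p = 0.00872).

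ZEB1 (ENSG00000148516, chr10:31318495-31529814, plus strand) encodes a repressor of CDH1 and of the miR-200 genes. It had 7, 13, 5 and 10 counts in the WT libraries and 17, 13, 11 and 15 in MIEN1_KO. On the CPM scale the groups did not overlap, but the highest WT library, at 0.506, lay next to the lowest edited one, at 0.508. The means were 0.362 ± 0.135 and 0.613 ± 0.103 CPM (SD, n = 4), a log2 difference of 0.75 (SE 0.31, 95% interval 0.080 to 1.410) that did not pass the test (edgeR adjusted p = 0.0679). Without WT replicate 2 it passed, at 0.97 (edgeR adjusted p = 0.0454). ZEB1-AS1 shares 366 exonic bases with ZEB1 and had 59 counts in WT and 56 in MIEN1_KO, near the number of ZEB1 itself (35 and 56), so reads of the pair may not be separable.

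SNAI1 (ENSG00000124216, chr20:49982999-49988886, plus strand) encodes Snail, a zinc finger repressor of CDH1. It had 30, 19, 24 and 17 counts in WT and 32, 33, 29 and 36 in MIEN1_KO. On the CPM scale the groups did not overlap, with the highest WT library at 1.26 and the lowest edited one at 1.33. The raw counts did overlap, with 30 in WT replicate 1 and 29 in edited replicate 3. The means were 0.938 ± 0.246 and 1.43 ± 0.16 CPM (SD, n = 4), and SNAI1 rose by 0.60 on the log2 scale (SE 0.21, 95% interval 0.148 to 1.059, edgeR adjusted p = 0.0348). The call was lost without WT replicate 2, 3 or 4 or without edited replicate 2 or 4, with log2 differences of 0.51 to 0.65. SNAI2 (ENSG00000019549, chr8:48917604-48921740, minus strand), which encodes the related repressor Slug, had 0 counts in all 8 libraries. A count of 0 allows up to 3 counts over each group, or 0.0312 CPM for WT and 0.0329 CPM for the edited group, and this limit covers counting error only.

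VIM (ENSG00000026025, chr10:17228259-17237593, plus strand) encodes vimentin, the intermediate filament of mesenchymal cells. It had 2, 4, 5 and 0 counts in WT and 1, 0, 2 and 3 in MIEN1_KO, too few to enter the test. With no filter on low counts the log2 difference was -0.74, with a 95% interval of -2.407 to 0.929 (edgeR adjusted p = 0.563). A difference in VIM was not detectable at this depth. Its antisense gene VIM-AS1 had 1 count in each group.

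**Figure D2:**
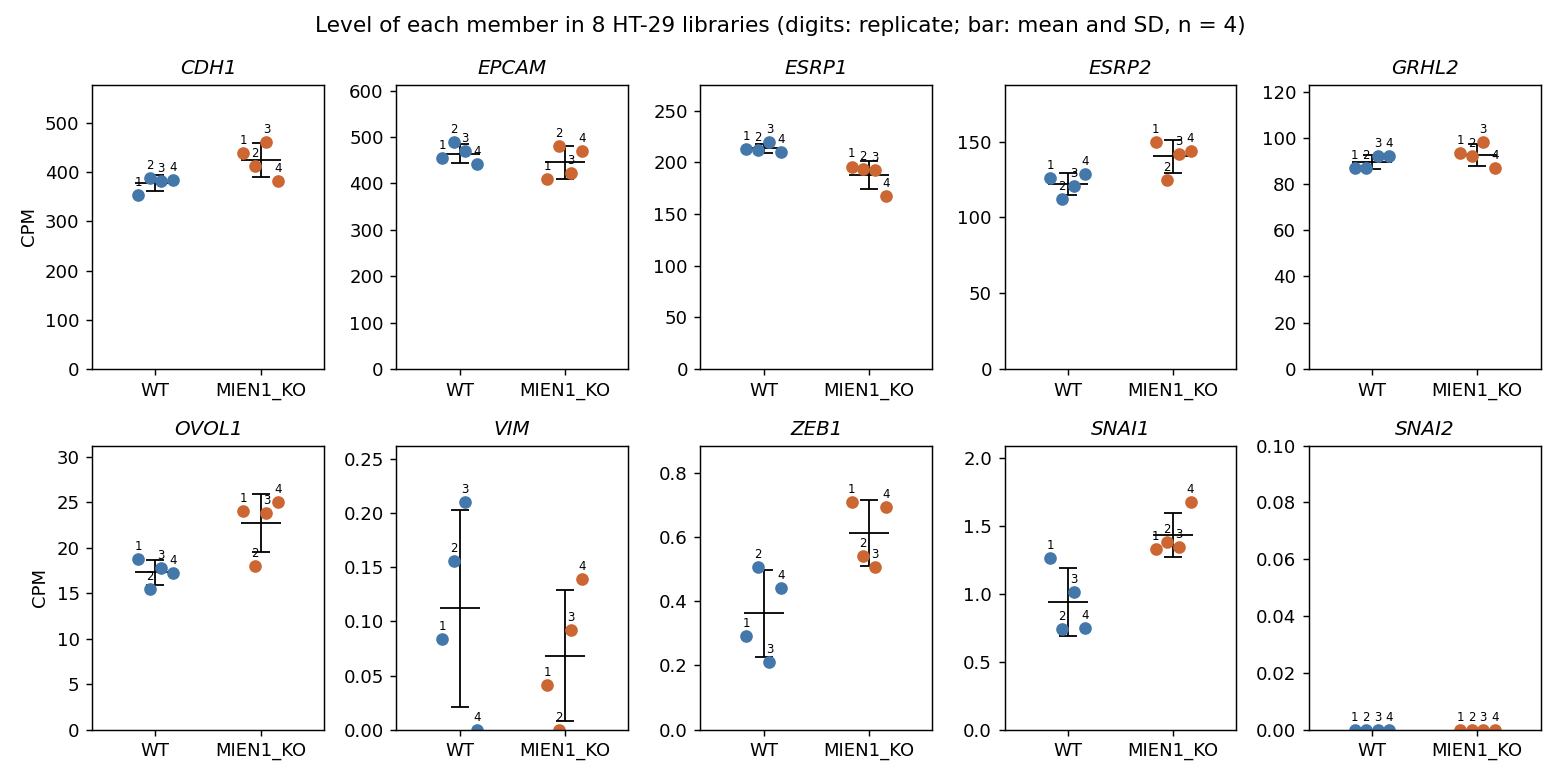
CPM of each member in 4 WT and 4 MIEN1_KO libraries, 1 point per library numbered by replicate, with the mean and SD as bars; each panel has its own axis from 0. ESRP1, ZEB1 and SNAI1 are the members whose groups do not overlap, and VIM stays at or below 0.21 CPM.

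Of the 10 members, 8 were tested and 4 were called, 3 higher (ESRP2, OVOL1 and SNAI1) and 1 lower (ESRP1), where 41.7% of all tested genes were called. Groups did not overlap for 3 of the 8, against 41.0% of all tested genes, with 2 members higher (20.1% of all tested genes) and 1 lower (21.0%). These shares are near the background. With single libraries left out, 1 to 4 members were called, the fewest without WT replicate 3. The changes of the abundant members were small: the absolute log2 differences of CDH1, EPCAM, ESRP1, ESRP2 and GRHL2 were below the median of all tested genes, 0.23.

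**Figure D3:**
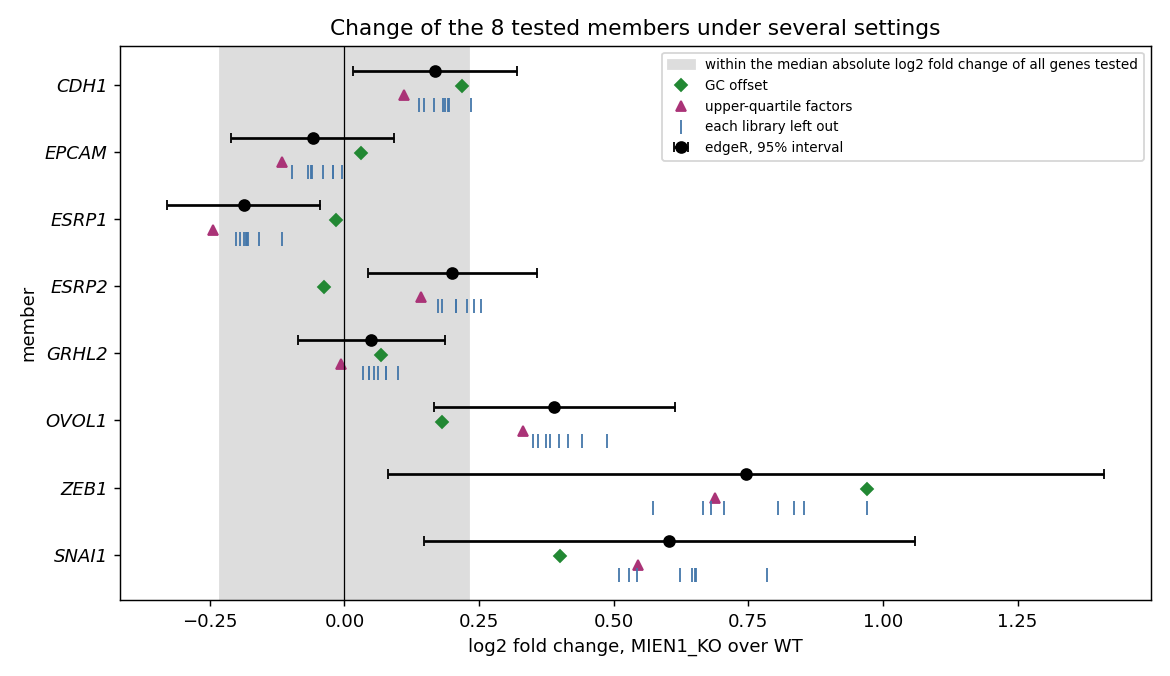
Log2 fold change of the 8 tested members, MIEN1_KO over WT, with 95% intervals from edgeR, and point values with a GC offset, with upper-quartile factors and with each library left out. The grey band covers the median absolute change of all tested genes, 0.23; ESRP1, ESRP2 and EPCAM move to near 0 with the GC offset.

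Transcript GC content moved with the fold changes across all tested genes. The median log2 difference was -0.15 for genes of 40 to 45% GC and 0.19 for genes of 55 to 60% GC. ESRP1 has a GC content of 42.8%, and ESRP2, OVOL1 and SNAI1 have 59.6%, 58.3% and 58.2%, so all 4 called members lay on the side of this trend that matches their direction. With a loess curve on GC as an offset, no call of the 4 was kept: ESRP1 was at -0.02 (edgeR adjusted p = 0.825), ESRP2 at -0.04 (edgeR adjusted p = 0.621), OVOL1 at 0.18 (edgeR adjusted p = 0.098) and SNAI1 at 0.40 (edgeR adjusted p = 0.137). In the same fit CDH1 (48.6% GC) was called at 0.22 (edgeR adjusted p = 0.00905) and ZEB1 (38.5% GC) at 0.97 (edgeR adjusted p = 0.0272). A first version of this offset, whose curves were not centred in each library, called 4 members, all higher: CDH1, GRHL2, OVOL1 and ZEB1. The centring was chosen after those calls had been seen.

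Around the members, 8 lists of related genes were read from the same fit. Of the 42 list genes named below for a call, 10 lost it with the GC offset: ADAM10, ADAM17, AFDN, COL1A1, CTNNB1, ENAH, GRHL1, MAL2, SKI and TGFBR1. Leaving out a single library ended 1 to 9 of the 42 calls, with FOXA1 and MARVELD3 also among those lost. The E-cadherin adhesion list had 4 of 13 genes higher and 5 lower, or 69.2% called beside 41.7% of all tested genes. Its median log2 difference was -0.08 beside -0.02 for all tested genes. NECTIN1, an adherens junction immunoglobulin protein, rose by 0.78 (edgeR adjusted p = 4.5e-06) and JUP, plakoglobin, by 0.63, as did ARVCF by 0.64 and NECTIN4 by 0.48. NECTIN3 fell by 1.33 on the log2 scale (edgeR adjusted p = 3.0e-06), AFDN by 0.29, and CTNNB1, which encodes beta-catenin, by 0.18. The other cadherins of the list had few counts left in MIEN1_KO: P-cadherin CDH3 went from 458 counts over WT to 26 over MIEN1_KO, and intestinal cadherin CDH17 from 59 to 3. Both entered the test through their WT libraries only, and both are among the 5 lower genes. With the GC offset the list had 4 genes higher and 3 lower.

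The list of other epithelial transcription factors, which also holds the host transcript MIR200CHG, had 12 genes tested, 3 higher and 4 lower. The share called was 58.3%, beside 41.7% of all tested genes. FOXA2, an endodermal forkhead factor, went from 1835 counts to 25 (log2 difference -6.10, edgeR adjusted p = 3.4e-11). It entered the test through its WT libraries only. KLF4 fell by 0.95, OVOL2, the paralog of OVOL1, by 0.69 and GRHL1, the paralog of GRHL2, by 0.27. ELF5 rose by 1.14, GRHL3 by 0.52 and FOXA1 by 0.19. With upper-quartile scaling the list had 2 genes higher and 6 lower.

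Of 26 epithelial genes known as targets of ZEB repression or GRHL2 maintenance, 12 were higher and 4 lower, with a median of 0.21. Over all tested genes 21.0% were higher and 20.7% lower, with a median of -0.02. The desmosomal gene PKP3 rose by 0.99 (edgeR adjusted p = 2.2e-05) and the tight junction gene CGN by 0.54, while the desmosomal gene DSP fell by 1.48 (edgeR adjusted p = 3.2e-07). ERBB3 fell by 0.30, MAL2 fell by 0.26 and MARVELD3 fell by 0.23 on the log2 scale. With the GC offset the split was 10 higher and 6 lower, and the median 0.05.

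In the list of other transition factors and corepressors, 7 of 17 genes had too few counts to test. TWIST1, TWIST2, FOXC2, PRRX1 and GSC had 0 counts in all libraries, and ZEB2 had 10 counts in WT and 1 in MIEN1_KO. Of the 10 tested, 4 were higher and 0 lower, or 40% called beside 41.7% of all tested genes. TCF3 rose by 0.68 (edgeR adjusted p = 7.3e-05), FOXC1 by 0.65, FOXQ1 by 0.52 and the corepressor CTBP1 by 0.48. At an upper-quartile scaling 2 of the 10 were lower.

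The mesenchymal list had 15 of 26 genes with too few counts to test, like VIM. Of the 11 tested, 3 were higher and 6 lower, or 81.8% called beside 41.7% of all tested genes, with a median of -0.66. Among the 7 with at least 50 counts in 4 libraries, 3 were higher and 3 lower, with a median of -0.07. CALD1, among the 6 lower genes, had 66 counts over WT and 1 over MIEN1_KO. It entered the test through its WT libraries only, so its direction follows in part from the filter on low counts. S100A4, a calcium-binding protein of motile cells, fell by 1.65 (edgeR adjusted p = 7.3e-07). TNC, an extracellular matrix glycoprotein, rose by 3.21 from 2.15 to 19.9 CPM (edgeR adjusted p = 1.0e-09), TGFBI rose by 0.77 and COL1A1 by 0.70. The N-cadherin gene CDH2 had 3 counts in each group.

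Of 12 genes that carry ESRP-regulated exons, 3 were called, or 25%, beside 41.7% of all tested genes. SCRIB rose by 0.68, ENAH fell by 0.25 and KIF13A by 0.73 (edgeR adjusted p = 6.5e-06), and the other 9, with CD44 and FGFR2 among them, did not pass. With upper-quartile scaling 1 was higher and 6 lower. Of 12 TGF-beta pathway genes, 4 were higher and 1 lower, or 41.7% called, the same share as over all tested genes. The ligand TGFB2 rose by 0.92 (edgeR adjusted p = 2.7e-06), SMAD7, SKI and SMAD3 rose by 0.49, 0.34 and 0.30, and the receptor TGFBR1 fell by 0.37. The split was 4 to 2 with upper-quartile scaling and 4 to 0 with the GC offset. The list of proteases and turnover factors of E-cadherin and EPCAM also holds the transcription factor LEF1. This list had 11 genes tested, 1 higher and 3 lower, or 36.4% called beside 41.7% of all tested genes. LEF1 rose by 1.23, and BACE2, ADAM10 and ADAM17 fell by 1.01, 0.28 and 0.23. With at least 50 counts in 4 libraries, 10 of its genes were tested, 0 higher and 3 lower. With the GC offset this last list had 3 higher and 2 lower.

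**Figure D4:**
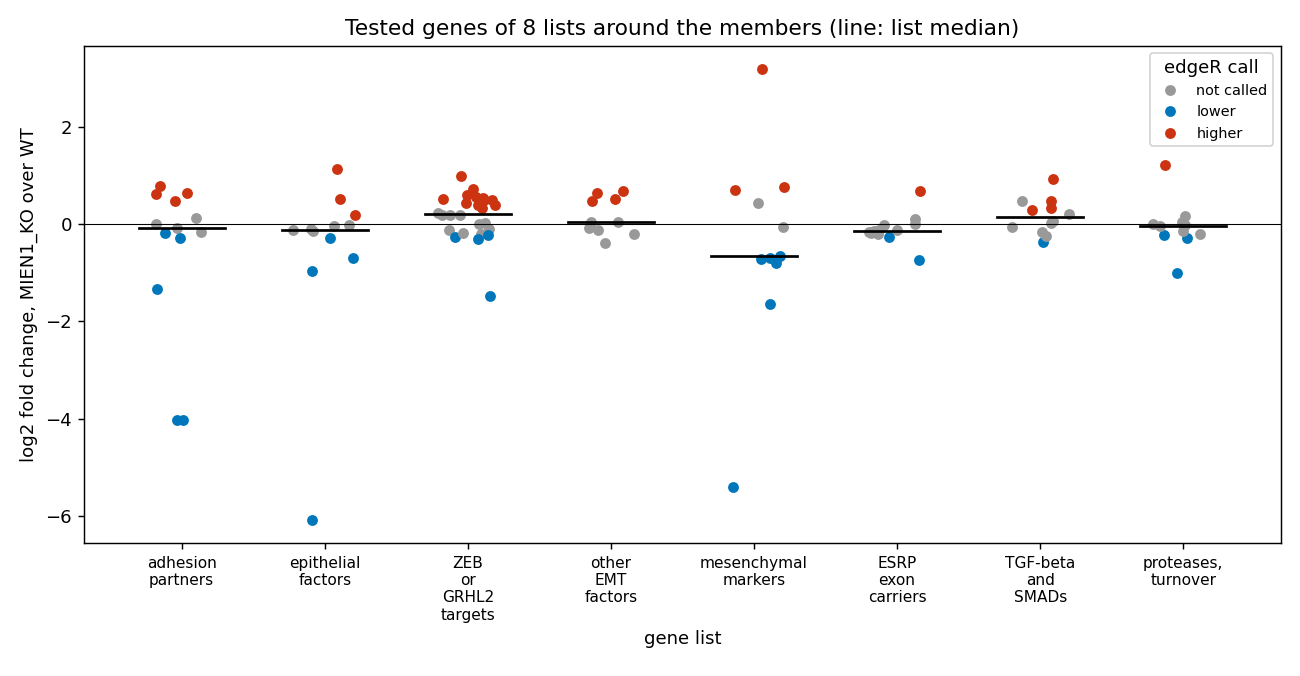
Log2 fold change, MIEN1_KO over WT, of each tested gene in 8 lists around the members, coloured by its edgeR call, with a line at each list's median. The mesenchymal list has a median of -0.66, or -0.07 over its genes with at least 50 counts in 4 libraries, and holds both TNC at 3.21 and genes far below 0.

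Across the 8 libraries, the protein-coding genes with the levels most like CDH1, by Pearson r of log2 CPM over 12054 genes, were AFAP1 (0.995), CAMSAP1 (0.99), MYH10 (0.986), UBFD1 (0.984) and FAM120A (0.982). The points share their libraries and both groups, so the values are a description. VIM had too few counts for the same search.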

How the data were processed

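Raw counts of reads per gene, unnormalized, were deposited by the authors, 1 file for each library. The submitters' processing notes name TopHat2 2.0.9, HTSeq 0.6.1 and the GRCh38 build. Which annotation was used, whether strand was counted and how multi-mapping reads were treated is not given in the sources used here. Symbols, positions, exon lengths and overlaps came from GENCODE release 29, and promoter entries were not used.

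All 48162 identifiers entered 1 fit in edgeR 4.0.16 (filterByExpr, TMM, robust quasi-likelihood on group, two-sided, Benjamini-Hochberg over 14228 genes, threshold 0.05). The SE is the one implied by the F statistic. Library sizes were kept as full totals. This setting and the default dispersion fit were adopted after several orderings had been fitted with the member calls in view; the 4 calls were the same in each. Alternatives were DESeq2 1.42.0 size factors and Wald test, upper-quartile factors, limma 3.58.1 voom, no filter, at least 50 counts in 4 libraries, a replicate block, a loess GC offset (span 0.5), and each library left out. Library sizes over tested genes were added as an alternative after the data were seen. Uncentred GC curves were run first, and the centring of the GC offset was chosen after their calls had been seen. The edgeR fit and the GC offset were tested on simulated data.

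The members and lists were chosen with earlier results of these data known. All 10 members are named, with MIEN1, the 3 genes of smallest p per list, any list direction of 5 genes or fewer, the 5 genes most like CDH1, and genes overlapping a member's exons. One list entry is not reported here and was left out of its list's counts. R 4.3.3 and Python 3.11.15 were used.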

Additional observations from a re-analysis of the deposited data

Results flagged for a closer look

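In 104 groups of 4 libraries examined, a gap test at the 95% level marked 6 values as far from the rest of their group, and chance marks about 1 in 20 groups. Among the members, ESRP1 in MIEN1_KO replicate 4 was lowest at 167 CPM, with the others at 193 to 196, and SNAI1 in the same library was highest at 1.67 CPM, with the others at 1.33 to 1.38. TGFB2 was lowest there at 22.4 CPM. In MIEN1_KO replicate 1, GRHL3 was highest at 21.1 CPM and TGFBI lowest at 117 CPM, and in replicate 2 SMAD7 was lowest at 24.3 CPM.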

How the results depend on the processing

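The number of members called was 4 and became 1 with no filter on low counts, 2 with at least 50 counts in 4 libraries, 2 with the GC offset, 2 with the GC offset and replicate block, and 1 to 4 when each library was left out. Over 19 alternatives OVOL1 was called in 17, ESRP1 in 9, ESRP2 in 8, CDH1 in 5, GRHL2 in 1 and EPCAM in 0; over the 18 in which they were tested, SNAI1 was called in 7 and ZEB1 in 4. The log2 differences that follow are those of members whose call or sign changed, and of list genes whose sign changed. Of the 42 named list genes, 32 kept their call with the GC offset, and 32 with the GC offset and replicate block. With the curves not centred 33 kept it, and with each other alternative that kept all libraries 40 or more did.

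With the GC offset CDH1 was 0.218, EPCAM 0.031, ESRP1 -0.015, ESRP2 -0.038, OVOL1 0.181, ZEB1 0.971, SNAI1 0.400 and ADAM17 0.000. With the GC offset and replicate block they were 0.216 for CDH1, 0.028 for EPCAM, -0.015 for ESRP1, -0.040 for ESRP2, 0.177 for OVOL1, 0.979 for ZEB1 and 0.406 for SNAI1. With the curves not centred, an alternative first run and then replaced with results in view, CDH1 was 0.283, EPCAM 0.096, ESRP1 0.050, ESRP2 0.027, GRHL2 0.133, ZEB1 1.036, SNAI1 0.464, ADAM10 0.017, ADAM17 0.066, CTNNB1 0.051, ENAH 0.010 and MAL2 0.022. With upper-quartile factors ESRP2 was 0.142 and GRHL2 -0.007. With no filter ESRP1 was -0.189, ESRP2 0.198 and SNAI1 0.601, and with at least 50 counts ESRP2 was 0.182. With the DESeq2 Wald test CDH1 was 0.178 and SNAI1 0.615. The causes were not tested.

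Leaving out each library gave 0.139 to 0.235 for CDH1, -0.201 to -0.116 for ESRP1, 0.173 to 0.254 for ESRP2, 0.573 to 0.971 for ZEB1 and 0.510 to 0.784 for SNAI1. Same-numbered libraries correlated at -0.076, 0.203, 0.069 and 0.00924 in their deviations, and not every library correlated best with its own number, so the numbers were not taken to pair samples. The replicate block gave 5984 genes and 3 members called, with SNAI1 at 0.607 (edgeR adjusted p = 0.0555). Members at a few counts (ZEB1, SNAI1, VIM) are limited by depth.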
